A study of Mus musculus with 8 samples.

Results

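Early B cell factors and homeobox transcription factors of sensory neurons were examined across 8 Affymetrix Mouse Genome 430 2.0 arrays, on which each transcript is read by groups of short DNA probes, called probe sets. The genes were Ebf1, Ebf2, Ebf3, Onecut1, Onecut2, Tlx1, Tlx3, Prrxl1, Hmx1 and Shox2, 10 of 18193 genes that the array's annotation names alone on at least 1 probe set. They were chosen by name, and every probe set that names 1 of them and no other gene was taken, 22 in all. Of these, 19 passed the filter on low signal and were tested, with at least 1 for each of the 10 genes. No probe set named 1 of these genes together with another.

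The arrays form 4 Exp samples and 4 Ctrl samples of mouse total RNA. One label field gives trigeminal ganglion, which holds the sensory neurons of the face, and another gives brain with adrenal medulla. They state no genotype, strain, treatment or age for Exp or for Ctrl, and they do not say whether animals were pooled, so what sets Exp apart from Ctrl is unknown here. Nothing in the labels says that the 4 arrays of a group came from separate animals or tissues, and the tests below therefore measure only how far these arrays spread, and part of that may be technical.

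All of these genes encode DNA-binding proteins that act in the specification of neuron types. Ebf proteins, also called Olf/Ebf or COE factors, bind DNA as dimers through a zinc-containing domain. They are known for B lymphocyte, fat cell and olfactory neuron differentiation as well as for neuron differentiation and migration. Onecut proteins carry a cut domain beside a homeodomain and act in liver, pancreas and neurons. Tlx1 and Tlx3 are homeodomain factors that promote glutamatergic over GABAergic fate in the dorsal spinal cord of the mouse. Prrxl1, also known as Drg11 or Drgx, is a paired-type homeodomain factor needed in mice for the wiring of nociceptive sensory neurons. Hmx1 acts in the developing eye, external ear and cranial sensory ganglia, and Shox2 in limb, heart pacemaker and sensory neurons of touch.

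The start regions of Onecut1, Prrxl1 and Gm16551 are shown first. Gm16551 is a long non-coding RNA gene next to Onecut1 that enters the results below. Exp 3 and Exp 4 were the lowest Exp arrays for Onecut1 and the highest for Prrxl1. The Exp spread of Onecut1 was wide, while that of Prrxl1 was common (SD 0.253 log2 units, reached by 39.7% of tested probe sets). Each stretch runs 5′ to 3′ over 300 bases, from 250 before the annotated start to 50 after it, and comes from the RefSeq promoter table of build GRCm38.p6. Capitals mark matches to 4 short motifs that were searched on both strands, namely CCCNNGGG for Ebf factors, ATCGAT for Onecut factors, TAATTA for homeodomain factors and CAAGTG for Hmx factors. Onecut1 (chr9:74861671-74861970, plus strand) is shown for its wide spread in Exp. Gm16551 (chr9:74848187-74848486, plus strand) is shown for its place beside Onecut1 and its array profile. Prrxl1 (chr14:32599677-32599976, plus strand) is shown since its array profile ran the other way.
Onecut1: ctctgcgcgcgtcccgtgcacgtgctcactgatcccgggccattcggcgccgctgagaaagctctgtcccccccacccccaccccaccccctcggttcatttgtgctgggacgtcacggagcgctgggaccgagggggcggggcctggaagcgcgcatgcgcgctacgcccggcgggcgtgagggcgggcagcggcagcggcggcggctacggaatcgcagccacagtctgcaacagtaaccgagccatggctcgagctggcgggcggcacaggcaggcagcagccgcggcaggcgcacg
Gm16551: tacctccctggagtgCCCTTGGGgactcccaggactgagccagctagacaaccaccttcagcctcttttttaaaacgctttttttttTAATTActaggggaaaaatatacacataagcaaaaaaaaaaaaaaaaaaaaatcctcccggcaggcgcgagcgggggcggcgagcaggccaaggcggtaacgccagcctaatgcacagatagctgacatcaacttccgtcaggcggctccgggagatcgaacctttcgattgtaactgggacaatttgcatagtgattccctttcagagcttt
Prrxl1: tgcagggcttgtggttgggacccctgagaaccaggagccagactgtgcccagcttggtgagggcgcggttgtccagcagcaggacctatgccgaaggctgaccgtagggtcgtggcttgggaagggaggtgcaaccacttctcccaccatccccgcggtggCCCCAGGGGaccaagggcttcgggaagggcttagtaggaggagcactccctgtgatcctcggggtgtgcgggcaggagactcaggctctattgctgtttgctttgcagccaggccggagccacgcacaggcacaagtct
The Onecut1 window had a GC content of 73.0%, against a median of 52.7% over all windows of the table. Prrxl1 had 63.7% and Gm16551 48.3%. None of the 4 motifs occurred in the Onecut1 window. The Prrxl1 window held 2 overlapping matches to CCCNNGGG, printed as a single run of capitals. Gm16551 held 1 match to CCCNNGGG and 1 to TAATTA. Windows were used for 7 of the 10 genes, 8 windows in all, since Ebf1 has 2. No window was used for Ebf2, Onecut2 or Hmx1, so the motif counts do not cover these genes. CCCNNGGG occurred in 2 of these 8 windows, those of Ebf3 and Prrxl1, against 13.7% of all 32851 promoters. CAAGTG occurred in 1, the second Ebf1 window, against 13.6% of all promoters. ATCGAT and TAATTA occurred in 0 of the 8, against 0.925% and 5.29% of all promoters. A match is a string of letters and not a measured binding site.

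The deposited signals are linear, with a trimmed mean (2% of probe sets dropped at each end) of 2500 on every array, and array medians ran from 500 to 548 in Exp and from 478 to 553 in Ctrl. Markers of trigeminal sensory neurons passed the filter on low signal in 11 of 12 listed genes, and their summed signal was 510422 to 575689 in Exp and 494934 to 546484 in Ctrl. Of these, Pou4f1 and Isl1, the homeodomain factors that mark sensory ganglion neurons, differed by 0.08 ± 0.09 and 0.00 ± 0.09 log2 units (SE). Actin 3′ to 5′ signal ratios, a sign of RNA integrity and of amplification, were 20.9 to 25.5 in Exp and 19.8 to 22 in Ctrl. On every array the 3′ end of actin thus gave a far higher signal than the 5′ end. Whether this bears on probe sets of a gene that disagree was not tested. Xist was high on Exp 1, Exp 4 and Ctrl 3, and the Y-linked gene Eif2s3y on the other 5 arrays, so both sexes were present in each group. The arrays of a group therefore did not all come from the same RNA. Whether arrays of the same sex came from separate animals is not known.

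None of the 19 tested probe sets passed the test for a difference between Exp and Ctrl. Signals were taken as log2(signal + 16), quantile normalised and compared with limma, with p-values adjusted by the Benjamini-Hochberg method across the 27022 probe sets tested. In that comparison 1 probe set, or 0.0037%, passed a 5% false discovery rate, and it was not one of these genes. At an unadjusted p under 0.05 limma passed 4.69% of all tested probe sets, 591 higher and 677 lower in Exp, and 0 of the 19. Exp arrays lay all above or all below the Ctrl arrays for 2.33% of all tested probe sets and for 0 of the 19. In direction, 7 of the 19 were higher and 12 lower in Exp, with a median difference of -0.10 log2 units, against 48.3% higher and a median of -0.01 over all tested probe sets. The smallest unadjusted p was 0.0771, for Onecut2, and every adjusted p was 0.9994. Standard errors ran from 0.10 to 0.63 log2 units, with a median of 0.15 over all tested probe sets. The 95% confidence interval lay within 1 log2 unit of 0 for 17 of the 19, against 93.5% of all tested probe sets. A probe set's signal depends on its own probes, so levels are compared between arrays, and a sum over a list of genes is likewise read only from array to array. In tissue RNA, fewer cells of a type and less RNA per cell cannot be told apart.

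**Figure D1:**
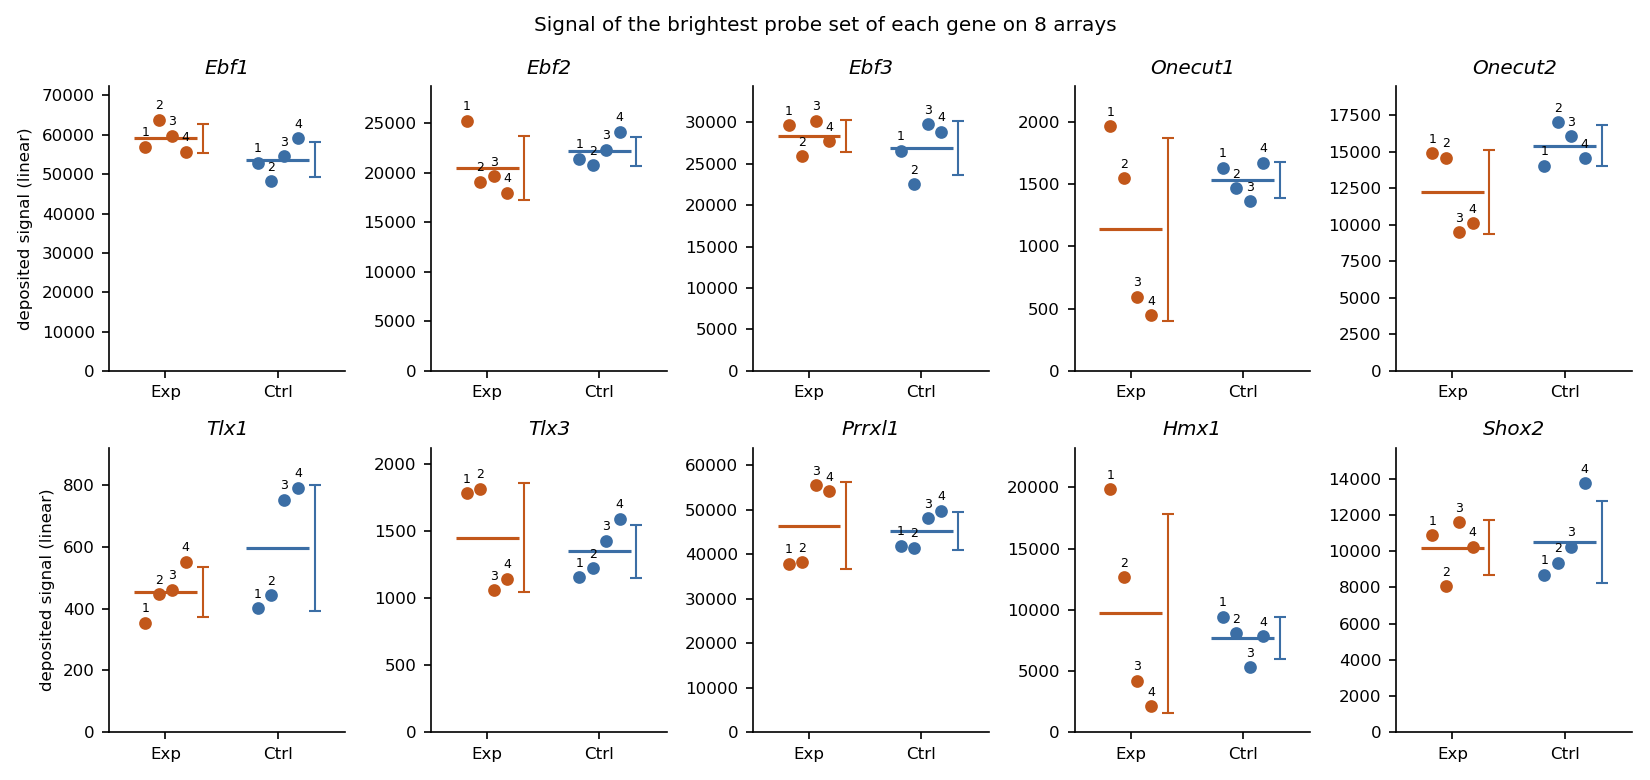
Deposited signal (linear scale from 0) of the brightest probe set of each of the 10 genes, Exp left and Ctrl right in each panel; points are arrays with their numbers, the horizontal line is the group mean and the bracket 1 SD to either side (n = 4 each). The 4 Exp points of Hmx1 and Onecut1 are spread far more widely than their Ctrl points, while those of Ebf1 and Ebf3 lie close together.

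The Ebf genes had overlapping values in Exp and Ctrl, and none of their 10 tested probe sets passed the test. Ebf1, which directs B cell development and is also present in sensory ganglia, had signals of 56934, 63860, 59720 and 55752 on the 4 Exp arrays, against 52906, 48233, 54612 and 59112 on the 4 Ctrl arrays (1416301_a_at). The ranges overlapped, with 2 Exp arrays above the highest Ctrl array. The mean signal was 59066 ± 3603 in Exp and 53716 ± 4496 in Ctrl (SD, n = 4 each). The difference was 0.09 ± 0.10 log2 units (SE), with a 95% confidence interval of -0.13 to 0.31, which is among the narrowest of the 19. Its 4 other probe sets gave differences of 0.07 ± 0.10 (1439789_at), 0.11 ± 0.15 (1416302_at), -0.18 ± 0.17 (1448293_at) and -0.23 ± 0.16 log2 units (1457441_at). They disagreed in direction, and none passed the test. On 1448293_at the array Exp 2 had 14347, below the 20032 to 27022 of Ctrl, while the other Exp arrays had 21387 to 23853, and without Exp 2 the difference was -0.03. Signals of 1457441_at, 269 to 375 in Exp and 295 to 411 in Ctrl, lay close to the filter at 333.

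Ebf2, which acts in neuron migration and in brown fat, had 25255, 19062, 19639 and 17972 in Exp, against 21406, 20770, 22301 and 24123 in Ctrl (1418494_at). The arrays Exp 2, Exp 3 and Exp 4 lay below the lowest Ctrl array, and Exp 1 lay above the highest. The mean was 20482 ± 3256 in Exp and 22150 ± 1458 in Ctrl, a difference of -0.12 ± 0.13 log2 units with a 95% confidence interval of -0.42 to 0.19. A further tested probe set of Ebf2, with 836 to 1789 in Exp and 1091 to 1808 in Ctrl, gave -0.20 ± 0.24. Single arrays moved both values: without Exp 1 the difference was -0.23 for the brighter and -0.36 for the dimmer probe set, and without Exp 4 it was -0.05 and -0.00. A probe set of Ebf2 under the filter had 204 to 380 in Exp and 101 to 273 in Ctrl.

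Ebf3, the family member linked to neurodevelopment in mouse and human, had 29619, 25925, 30189 and 27708 in Exp, against 26560, 22517, 29749 and 28847 in Ctrl (1452751_at). These ranges overlapped, with the lowest array, Ctrl 2, in Ctrl and the highest, Exp 3, in Exp. The mean was 28360 ± 1940 in Exp and 26918 ± 3227 in Ctrl, and the difference 0.07 ± 0.12 log2 units with a 95% confidence interval of -0.19 to 0.34. The other Ebf3 probe sets gave -0.12 ± 0.11 (1428349_s_at, 4039 to 5352 in Exp and 4757 to 5715 in Ctrl) and 0.15 ± 0.13 (1460666_a_at, 1641 to 2319 in Exp and 1421 to 1861 in Ctrl). As with Ebf1, the probe sets of Ebf3 disagreed in direction.

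**Figure D2:**
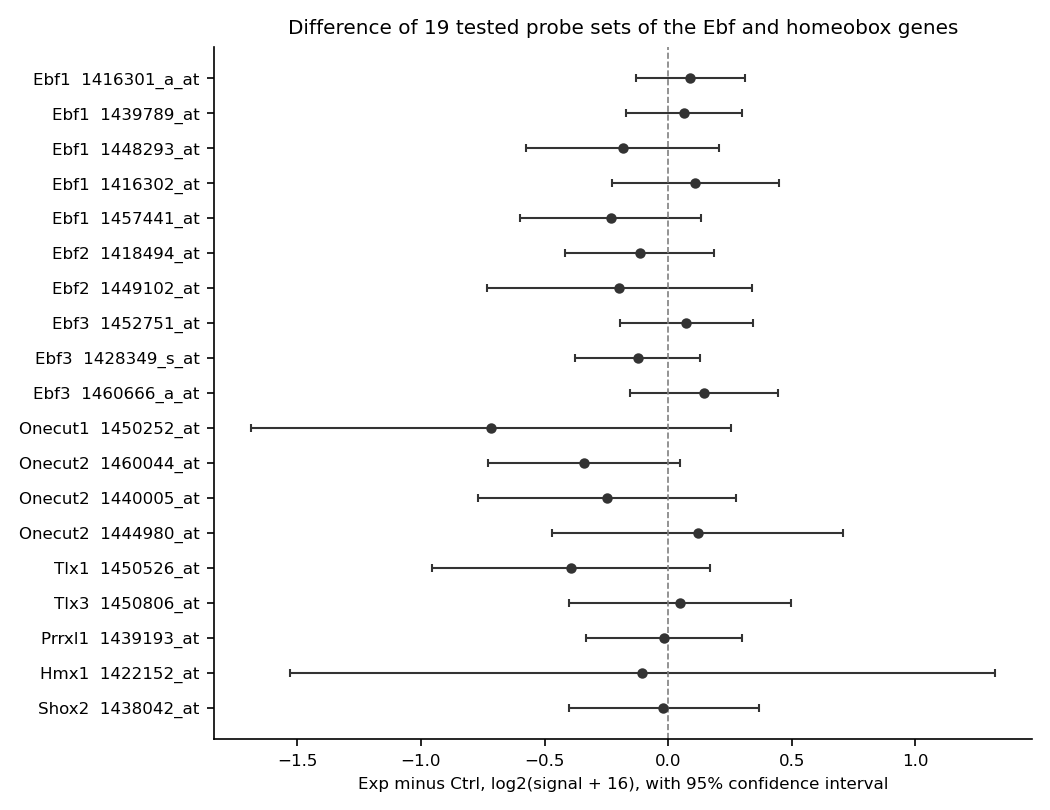
Exp minus Ctrl difference in log2(signal + 16) for the 19 tested probe sets, with points for the limma estimate and bars for its 95% confidence interval (n = 4 arrays each). All 19 intervals cross 0, and those of Hmx1 and Onecut1 are the 2 that reach beyond 1 log2 unit.

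Onecut1 and Onecut2 had the 2 lowest unadjusted p-values of the 10 genes, neither past the threshold, and Exp arrays unlike each other. Onecut1, known as hepatocyte nuclear factor 6 in liver, had 1963, 1546, 595 and 445 in Exp, against 1630, 1467, 1361 and 1669 in Ctrl (1450252_at). Exp 1 was above all Ctrl arrays and Exp 2 within their range, whereas Exp 3 and Exp 4 were far below them. The mean was 1137 ± 735 in Exp and 1532 ± 144 in Ctrl. Between the highest and lowest array the signal differed 4.41-fold in Exp and 1.23-fold in Ctrl. The difference of the groups was -0.72 ± 0.43 log2 units, with a 95% confidence interval of -1.69 to 0.25 and an unadjusted limma p of 0.1292. Its size depended on single arrays: it was -1.05 without Exp 1, -0.53 without Exp 3 and -0.34 without Exp 4, and no adjusted p fell under the threshold. A dimmer Onecut1 probe set (1421447_at), not tested, had 377, 321, 139 and 341 in Exp, against 366, 420, 368 and 187 in Ctrl. There Exp 4 was near the other Exp arrays, so the dimmer probe set did not follow the brighter one on that array.

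Onecut2, a close relative of Onecut1 that also acts in neurons and endocrine cells, had 14934, 14602, 9500 and 10102 in Exp, against 14066, 17045, 16095 and 14556 in Ctrl (1460044_at). Again Exp 3 and Exp 4 lay below every Ctrl array, while Exp 1 and Exp 2 lay within the Ctrl range. The mean was 12285 ± 2881 in Exp and 15440 ± 1375 in Ctrl, and the difference -0.34 ± 0.17 log2 units with a 95% confidence interval of -0.73 to 0.05. A further probe set, 1440005_at, had 9346, 8539, 5171 and 4562 in Exp, against 7938, 9305, 6970 and 7956 in Ctrl, a difference of -0.25 ± 0.23. Its 2 lowest arrays were the same Exp 3 and Exp 4. The difference was -0.41 without Exp 1, -0.13 without Exp 3 and -0.08 without Exp 4. The last, 1444980_at, had 6534, 5292, 5761 and 3495 in Exp, against 3010, 5720, 6140 and 5139 in Ctrl, a difference of 0.12 ± 0.26. Here Exp 3 was not low, and the lowest array of all was Ctrl 1, so the probe sets of Onecut2 differed among themselves.

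Of the Tlx pair, Tlx1, which in mice is required for the spleen, had 354, 446, 461 and 551 in Exp, against 401, 443, 752 and 790 in Ctrl (1450526_at). Ctrl 3 and Ctrl 4 were above all other arrays, and Ctrl 1 and Ctrl 2 lay within the Exp range. The mean was 453 ± 80 in Exp and 596 ± 203 in Ctrl, and the difference -0.39 ± 0.25 log2 units with a 95% confidence interval of -0.96 to 0.17. It was -0.59 without Ctrl 1 and -0.24 without Ctrl 4. Here the wide group was Ctrl, whose SD of 0.514 log2 units was reached by 5.93% of all tested probe sets. Tlx3, the selector of glutamatergic fate, had 1781, 1816, 1060 and 1144 in Exp, against 1156, 1223, 1428 and 1591 in Ctrl (1450806_at). Exp 1 and Exp 2 lay above every Ctrl array, and Exp 3 and Exp 4 below every one. The means, 1450 ± 404 in Exp and 1350 ± 198 in Ctrl, differed by 0.05 ± 0.20 log2 units with a 95% confidence interval of -0.40 to 0.50.

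Prrxl1, a factor found downstream of Tlx3 in the mouse dorsal horn, had 37955, 38259, 55506 and 54254 in Exp, against 41943, 41495, 48107 and 49860 in Ctrl (1439193_at). Exp 1 and Exp 2 lay below every Ctrl array and Exp 3 and Exp 4 above, the reverse of Tlx3. The mean was 46494 ± 9698 in Exp and 45351 ± 4259 in Ctrl, and the difference -0.02 ± 0.14 log2 units with a 95% confidence interval of -0.33 to 0.30. Shox2, which marks sensory neurons of touch, had 10870, 8067, 11577 and 10252 in Exp, against 8704, 9353, 10239 and 13745 in Ctrl (1438042_at). The ranges overlapped, Exp 2 was the lowest array and Ctrl 4 the highest, and the difference was -0.02 ± 0.17 log2 units with a 95% confidence interval of -0.40 to 0.37. A probe set of Shox2 under the filter had 338, 290, 220 and 241 in Exp, against 108, 123, 231 and 449 in Ctrl.

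Hmx1 had the widest spread of the 10 genes. Its signals were 19836, 12648, 4226 and 2130 in Exp, against 9440, 8077, 5330 and 7837 in Ctrl (1422152_at). Exp 1 and Exp 2 lay above every Ctrl array, and Exp 3 and Exp 4 below every one. The highest and lowest array differed 9.31-fold in Exp and 1.77-fold in Ctrl. The mean was 9710 ± 8138 in Exp and 7671 ± 1713 in Ctrl on the linear scale, while the log2 difference was -0.10 ± 0.63 with a 95% confidence interval of -1.53 to 1.32. The linear mean was thus higher in Exp while the log2 difference was below 0, with an interval that includes 0. The linear means were not tested. Leaving out Exp 1 moved the log2 difference to -0.62, and leaving out Exp 4 to 0.46.

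Set against all tested probe sets, the spread of Hmx1 and Onecut1 in Exp was near the upper end. The SD of Hmx1 over the Exp arrays was 1.474 log2 units, a value reached by 0.255% of all tested probe sets, and over the Ctrl arrays 0.359, reached by 17.7%. Onecut1 had an SD of 1.015 in Exp, reached by 0.844%, and of 0.130 in Ctrl, reached by 72.5%. The median SD over all tested probe sets was 0.213 in Exp and 0.199 in Ctrl, so the arrays as a whole were about equally spread in the groups. Onecut2 had 0.350 in Exp, reached by 21.5%, and 0.109 in Ctrl for 1460044_at. On 1440005_at Onecut2 had 0.502 in Exp, reached by 7.95%, and 0.154 in Ctrl. Tlx3 had 0.373 in Exp, reached by 18.5%, and Prrxl1 0.253, reached by 39.7%. Among the other genes, Ebf1 and Ebf3 each had an SD of 0.106 in Exp for their brightest probe sets, which 84% and 83.9% of all tested probe sets reached. Of the 19 probe sets, 8 had Exp 3 and Exp 4 as the 2 lowest Exp arrays, against 18.3% of all tested, and 3 had them as the 2 highest, against 19.1%. These counts were made after the values were seen, several of the 19 are probe sets of 1 gene, and no test was made of them. The labels give nothing that sets Exp 3 and Exp 4 apart from Exp 1 and Exp 2. Xist was high on Exp 1 and Exp 4, and actin 3′ to 5′ ratios were 20.9, 25.5, 23 and 24.5 on Exp 1 to Exp 4. The part of sex or RNA quality in these values was not tested.

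**Figure D3:**
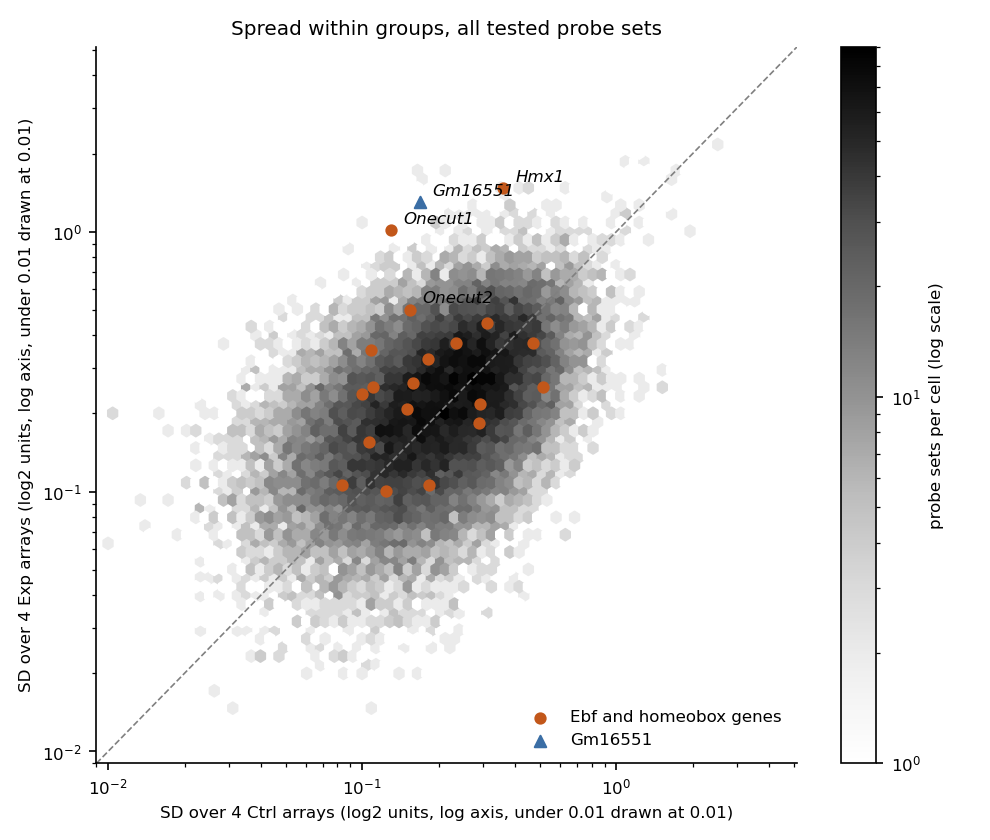
SD of log2(signal + 16) over the 4 Exp arrays (vertical) against that over the 4 Ctrl arrays (horizontal), both on log axes, for all 27022 tested probe sets as grey cells, darker where more probe sets lie, with the Ebf and homeobox probe sets as orange points and Gm16551 as a blue triangle; values under 0.01 are drawn at 0.01 and the dashed line marks equal SD. Hmx1 (1.474 in Exp), Gm16551 (1.305) and Onecut1 (1.015) lie at the upper edge.

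The gene whose array profile was nearest to that of Hmx1, among the brightest tested probe sets of 12763 genes, was Gm16551. Nearness was the mean absolute difference between log2 profiles, each centred on its own mean over the 8 arrays. It was 0.198 log2 units for Gm16551 and 0.302 for Ajap1, the next gene, while Hmx1 itself deviated from its mean by 0.739 on average. Gm16551 had 10345, 7250, 2802 and 1409 in Exp, against 6154, 6655, 5054 and 5510 in Ctrl. The order of the Exp arrays was that of Hmx1, with Exp 1 and Exp 2 above and Exp 3 and Exp 4 below every Ctrl array. Its SD was 1.305 log2 units in Exp, reached by 0.381% of all tested probe sets, and 0.169 in Ctrl, and the difference of the groups was -0.46 ± 0.55. Without Exp 1 that difference was -0.90, and without Exp 4 it was 0.06.

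On chromosome 9, Gm16551 is the measured gene next to Onecut1 on the same strand, and its annotated start lies 13484 bases before that of Onecut1 in GRCm38.p6, with 0 protein-coding genes between them. Gm16551 was looked up as a neighbour after its values were seen. Hmx1 lies on chromosome 5. On the other side of Onecut1, Fam214a had 2832, 2722, 2754 and 2222 in Exp, against 2833, 2524, 2759 and 2477 in Ctrl (1436033_at), a difference of -0.01 ± 0.11 log2 units. On this probe set Exp 3 lay within the Ctrl range, and Exp 4 was the lowest of all 8 arrays. A further Fam214a probe set, 1439293_at, gave 0.30 ± 0.11 with an unadjusted p of 0.02449 and an adjusted p of 0.9994. The measured neighbours of Hmx1 were under the filter.

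**Figure D4:**
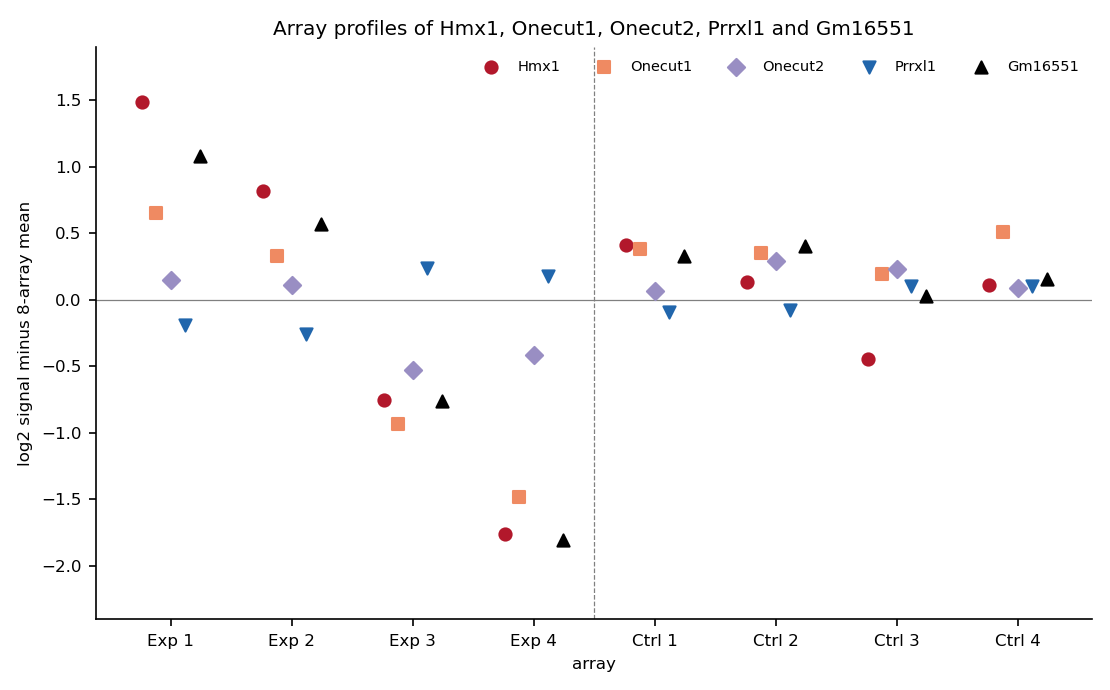
Log2(signal + 16) minus the mean over 8 arrays for the brightest probe set of Hmx1, Onecut1, Onecut2, Prrxl1 and Gm16551, on the 4 Exp arrays (left) and the 4 Ctrl arrays (right); 1 point is 1 array. Hmx1, Onecut1, Onecut2 and Gm16551 are low and Prrxl1 high on Exp 3 and Exp 4, and the Ctrl points lie nearer to 0.

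The nearest profiles of the other 9 genes lay between 0.027 and 0.215 log2 units away. Onecut1 was nearest to Ptprj, a receptor tyrosine phosphatase, at 0.212 log2 units, and Col20a1, a collagen, at 0.215, with its own mean deviation at 0.604. Onecut2 was nearest to Adgrl2, an adhesion G protein-coupled receptor, at 0.066, and Crtac1 at 0.070, with its own at 0.236. Adgrl2 had 23322, 23760, 14134 and 15091 in Exp, against 22631, 23666, 21925 and 21964 in Ctrl, so it was low on the same 2 Exp arrays as Onecut2. Tlx3 was nearest to Itgav, an integrin subunit, at 0.078 and Cmtm3 at 0.085, with its own mean deviation at 0.250. Prrxl1 was nearest to Arl15 at 0.039 and Shc1, a signalling adaptor, at 0.042, with its own at 0.156. Tlx1 was nearest to Irak3 at 0.107 and Taf4b at 0.119, with its own at 0.324. Among the Ebf genes, Ebf1 was nearest to Rhobtb3 at 0.027 and Dpp8 at 0.030, Ebf2 to Lypla1 at 0.040 and Zfp646 at 0.054, and Ebf3 to Trp53inp2 at 0.038 and Eif4a1 at 0.041. Shox2 was nearest to Ankrd54 and Mvd, each at 0.066. None of these nearest genes was another of the 10. The profiles span 8 arrays, 1 choice per gene was made among 12763, and the Hmx1 profile rests mainly on the Exp arrays.

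Related genes gave no call either. The paralogues outside the 10 genes had 2 of 5 tested, Ebf4 and Tlx2, with 0 called. Ebf4 had 1074, 977, 609 and 683 in Exp, against 974, 787, 787 and 936 in Ctrl, a difference of -0.14 ± 0.17 log2 units. Tlx2, which acts in enteric neurons, had 770, 620, 515 and 593 in Exp, against 638, 636, 650 and 780 in Ctrl, a difference of -0.17 ± 0.13. Both paralogues had Exp 3 and Exp 4 as their lowest Exp arrays. Onecut3, Hmx2 and Hmx3 were under the filter. The Ebf partners Zfp521 and Zfp423, zinc-finger proteins that bind Ebf factors, differed by -0.10 ± 0.11 and 0.01 ± 0.14 log2 units.

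Among sensory neuron transcription factors, 18 of 24 were tested, 9 higher and 9 lower in Exp, with 0 called and a median of -0.003 log2 units. The smallest unadjusted p was that of Klf7, a zinc-finger factor of sensory neurons, at 0.29 ± 0.11 log2 units with an unadjusted p of 0.025 and an adjusted p of 0.9994. Pou4f3 differed by -0.34 ± 0.18 and Six4 by -0.23 ± 0.14. Of 12 transmitter and dorsal horn genes tied to Tlx3 and Prrxl1 in the mouse spinal cord, 4 were tested, 3 higher and 1 lower, with 0 called and a median of 0.045. Slc17a6, the vesicular glutamate transporter of sensory neurons, had 17044, 15803, 18680 and 16513 in Exp, against 15805, 16784, 15877 and 15772 in Ctrl, a difference of 0.09 ± 0.09. Within Exp the array values of Slc17a6 varied less than those of Tlx3, and a link between these genes was not tested. The GABAergic genes Gad1, Gad2 and Slc32a1 were under the filter. Of 22 sensory subtype genes, 17 were tested, 11 higher and 6 lower, with 0 called and a median of 0.025. Their summed signal was 187200, 197787, 202604 and 209899 in Exp, against 184209, 207888, 197282 and 187850 in Ctrl, so Exp 3 and Exp 4 were the 2 highest Exp arrays for this list. Gfra2 and Gfra3, receptors for GDNF-family ligands, differed by 0.16 ± 0.10 and 0.24 ± 0.16, and Ntrk3, the neurotrophin-3 receptor, by -0.23 ± 0.16.

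Markers of other tissues that express these genes were measured beside them. For B cells, where Ebf1 acts, 2 of 9 markers were tested, Pax5, Cd79a and Cd79b were under the filter, and the summed signal, over tested and untested markers, was 1576 to 2247 in Exp and 1739 to 2547 in Ctrl. Both tested markers were higher in Exp, with 0 called: Igll1, a part of the pre-B cell receptor, by 0.57 ± 0.23 log2 units (unadjusted p 0.03355, adjusted p 0.9994), and Ms4a1 by 0.08 ± 0.17. For adipocytes 1 of 6 was tested, Fabp4, and Adipoq, Cidec, Pparg and Cebpa were under the filter, with sums of 1075, 995, 951 and 859 in Exp and 1046, 968, 1019 and 1007 in Ctrl. The adipocyte sum ordered the Exp arrays as Hmx1 did, with Exp 3 and Exp 4 below every Ctrl array, and it includes the 4 genes under the filter. Fabp4 itself had 450, 475, 380 and 348 in Exp, with Exp 2 above Exp 1, which is not the order of Hmx1. Olfactory neurons had 2 of 6 tested, with Omp and Cnga2 under the filter and sums of 8411 to 11898 in Exp and 9083 to 12007 in Ctrl. Craniofacial mesenchyme had 5 of 14 tested, with 0 called and sums of 7279 to 10172 in Exp and 5994 to 8079 in Ctrl. Among them Prrx1 differed by 0.52 ± 0.21 log2 units (unadjusted limma p 0.0337, adjusted p 0.9994). The sums of the mesenchyme list, over tested and untested markers, were 7288, 10172, 7279 and 9279 in Exp. They did not divide Exp 3 and Exp 4 from the other arrays. Hindbrain and spinal neurons had 3 of 10 tested, with sums of 1444 to 1939 in Exp and 1394 to 1698 in Ctrl. Forebrain neurons had 2 of 5 tested, with sums of 5762, 3589, 3501 and 2956 in Exp and 3936, 4195, 4104 and 4947 in Ctrl. The forebrain sum also ordered the Exp arrays as Hmx1 did, with Exp 2, Exp 3 and Exp 4 below every Ctrl array. Neurod6, the largest part of this sum, had 4617, 2488, 2713 and 2259 in Exp, with Exp 3 above Exp 2, unlike Hmx1. The orders of the adipocyte and forebrain sums were noted after the values of all marker lists were seen. No test was made of them. Mural cells had 7 of 8 tested, with sums of 17329 to 26508 in Exp, the highest on Exp 3, and 15740 to 20504 in Ctrl. That high sum came from Acta2, at 16017 on Exp 3 and 1757 to 4361 on the other arrays. Rgs5, Pdgfrb, Notch3 and Cspg4 each had their lowest Exp signal on Exp 3. The log2 values of the tested mural markers, each centred on its 8-array mean, averaged -0.095 on Exp 3.

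Schwann and satellite glia had 8 of 10 markers tested, 1 higher and 7 lower in Exp, with 0 called and a median of -0.17. Over all tested probe sets 48.3% were higher. Sox10 differed by -0.33 ± 0.14 log2 units (unadjusted limma p 0.04466, adjusted p 0.9994). The glial sums were 149006 to 175528 in Exp and 156213 to 178778 in Ctrl, of which Fabp7 gave 88063 to 106741 on the 8 arrays. Autonomic and chromaffin markers had 5 of 10 tested, with Dbh, Phox2a and Hand2 under the filter and sums of 32836 to 34208 in Exp and 33584 to 36811 in Ctrl. Adrenal cortex markers had 3 of 5 tested, with sums of 1889 to 2532 in Exp and 1702 to 2072 in Ctrl. Skeletal muscle markers, 9 of 10 tested and 8 higher in Exp with 0 called and 3 at an unadjusted p under 0.05 (Myh8, Actn2 and Myod1), summed to 10539, 19487, 62442 and 4528 in Exp and 7997, 6569, 5840 and 9839 in Ctrl. Hepatocyte markers, 3 of 6 tested, summed to 26724, 1278, 6465 and 1734 in Exp and 10157, 1646, 9699 and 3397 in Ctrl. The muscle sum was highest on Exp 3 and lowest on Exp 4, and the hepatocyte sum was highest on Exp 1 and lowest on Exp 2. The part of RNA from other tissue in the Hmx1 and Onecut1 values was not tested.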

How the data were processed

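Total RNA of 4 Exp and 4 Ctrl samples was measured on Affymetrix Mouse Genome 430 2.0 arrays, and groups and numbers came from the sample titles. The deposited table holds a linear intensity for each probe set on each array. The authors' method for these intensities is not given in the sources. They carry no detection call, so a low signal may be background. Of 45101 probe sets, 64 controls were left out. Values were taken as log2(signal + 16) and quantile normalised over the 8 arrays, which makes differences relative to the bulk of probe sets, and the pseudocount understates changes of low signals. Probe sets with a mean at or above the 40th percentile, a signal of about 333, were tested: 27022 of 45037. Differences, Exp minus Ctrl, were fitted in R 4.3.3 with limma 3.58.1 (lmFit, eBayes, two-sided), and p-values were adjusted by the Benjamini-Hochberg method across the tested probe sets, with calls at a 5% false discovery rate. The script was tested on simulated data. The precision is limited by the 4 arrays per group.

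Gene names came from the platform annotation, with symbols updated from RefSeq (GRCm38.p6) by Entrez identifier: 34945 probe sets had 1 name, 932 several and 9160 none, and 34741 of the first matched by identifier. Named were all probe sets of the 10 genes, the 2 nearest profiles of each, and up to 4 genes of each related list with the smallest p. Genes and lists were chosen with earlier results of these data known. Exp and Ctrl arrays of the same number had deviations from their group means that correlated between -0.123 and 0.050. For arrays of different number the range was -0.173 to 0.200. Such correlations cannot show whether the numbers mark a shared animal, litter or batch. The labels do not say, so the main fit used no pairing. Alternatives were pseudocounts of 1 and 64, no filter and a filter at the 60th percentile, no normalisation, centring, a replicate block, trend and robust options, array weights, averaging the probe sets of a gene, and dropping each array in turn. Figures were drawn with matplotlib 3.10.9.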

Additional observations from a re-analysis of the deposited data

Results flagged for a closer look

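A single array stood far from the other 3 of its group in 2 of 44 groups examined, where chance alone gives about 2.2 at 1 in 20. Onecut1 (1421447_at), under the filter and not tested, had a normalised log2 value of 7.26 on Exp 3, against 8.39 to 8.57 on the other Exp arrays, and its signal there was 139. The tested Onecut1 probe set was also low on Exp 3, at a signal of 595. Ebf1 (1457441_at), close to the filter, had 8.22 on Ctrl 1, against 8.74 to 8.84 on the other Ctrl arrays, with a signal of 295. The 4 brighter Ebf1 probe sets had no such gap on Ctrl 1.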

How the results depend on the processing

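None of the 10 genes was called under any alternative. Of 325 recomputed differences of their 19 probe sets, 308 kept their direction and 17 turned, in 7 probe sets whose main difference was at most 0.119 log2 units in size. Over all probe sets the 1 call became 0 with no filter, with the filter at the 60th percentile and with the replicate block, and leaving out each array gave 0 to 1, with 1 only without Exp 2. The main fit called none of these genes, so the replicate block had no call of theirs to end. Prrxl1 became 0.017 without normalisation, Hmx1 0.29 with array weights, and Ebf1 (1416301_a_at) -0.03 as the mean of its probe sets. Zfp423 became -0.042 with centring and -0.034 with array weights. Leaving out each array gave -0.62 to 0.46 for Hmx1, -0.90 to 0.062 for Gm16551, -0.07 to 0.16 for Tlx3, -0.101 to 0.065 for Prrxl1, -0.092 to 0.120 for Shox2, -0.013 to 0.125 for Ebf3 (1452751_at), -0.11 to 0.30 for Onecut2 (1444980_at) and -0.12 to 0.10 for Zfp423. The cause of these turns was not tested. Onecut1 kept its direction, at -1.05 to -0.34, as did Onecut2 (1460044_at), at -0.45 to -0.22. The files give no background signal, which limits what the dim probe sets of Ebf2, Onecut1 and Shox2 can show.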
